A study of Populus trichocarpa with 18 samples.

Results

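Control protoplasts of Populus trichocarpa (black cottonwood) were compared at 25 h and 7 h after transfection, over 6 of the 18 libraries of the series. The 6 libraries were chosen by their labels, as the 3 replicates that received sGFP alone and were sampled at 7 h and the 3 sampled at 25 h. Libraries with the same replicate number were compared with each other. The protoplasts came from stem-differentiating xylem of greenhouse plants, were transfected with DNA by the polyethylene glycol method, and were measured by RNA-seq of total RNA. sGFP is a green fluorescent protein, given here as the control for the overexpression of the transcription factor PtrSND1-B1. The other groups used below are sGFP alone at 12 h and PtrSND1-B1 together with sGFP at 7, 12 and 25 h, each with 3 libraries. No untransfected or freshly isolated protoplasts were analysed here, so the 7 h libraries are the starting point and not an undisturbed state. The labels do not say whether replicates came from separate plants or isolations, so the p-values measure no more than how these libraries vary, and that variation may be technical.

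A protoplast is a plant cell freed from its wall by enzymes. In differentiating xylem, the young wood, cells deposit a thick secondary wall of cellulose, xylan and lignin and many of them then die as part of their development. Protoplasts are cut off from neighbouring cells and from the stem, are wounded by isolation and may begin to rebuild a wall, so transcript levels in culture are known to move away from those of the tissue. The control libraries measure how far they moved over the time in which a transfected gene is studied.

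The deposited counts give each gene by an identifier only. None of the 40668 loci was matched to a gene of the RefSeq table used for names (0 matched). No gene is therefore given a name or a role, and markers of xylem or of other cell types could not be checked. At most 2 identifiers are printed for their rise and 2 for their fall. POPTR_0004s05110.1 is printed besides, for its difference between constructs. Genes are grouped below by the size, level, timing and position of their change. Totals over the first model of each locus were 3541698 to 5454419 counts per library at 7 h and 2736863 to 13970708 at 25 h. The deepest library was 25 h replicate 1 and the shallowest 25 h replicate 2. A transcript level is given as CPM, the count scaled to a common library total by TMM and not corrected for transcript length. In a bulk sample, fewer cells that express a gene and less RNA per cell cannot be told apart.

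From 7 to 25 h, a large share of the measured genes changed in the control protoplasts, in near equal numbers up and down. Of 23777 genes tested, 3628 rose (15.3%) and 3956 fell (16.6%), by edgeR's quasi-likelihood test blocked on replicate number, at a Benjamini-Hochberg adjusted p under 0.05. The rises had a median of 1.13 on the log2 scale and the falls a median of -0.99, against 0.01 over all genes tested. At least 2-fold rises numbered 2100 and at least 2-fold falls 1952. Rises of at least 8-fold numbered 262 and falls of that size 105, and 89 rises and 17 falls were at least 16-fold. Before adjustment, 10043 genes had a p under 0.05. Without the block 2065 genes rose and 2191 fell, all of them among the 7584 called with it. With only the 6 control libraries in the fit 1690 rose and 1799 fell, and 99.6% of these were shared. When counts were scaled by library size only, the median change over all genes was -0.15 and the split was 2296 rises and 5056 falls, so the near balance of both directions rests on the scaling.

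**Figure D1:**
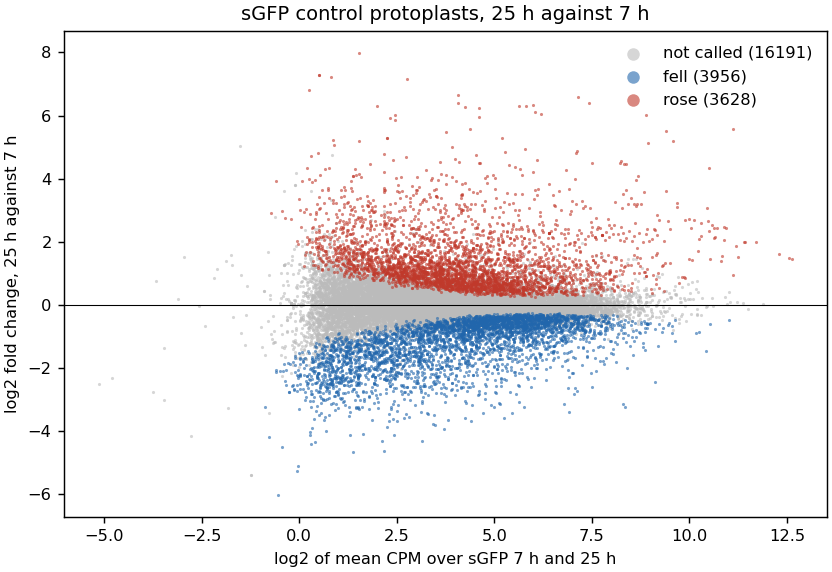
Log2 fold change from 7 to 25 h in sGFP protoplasts (vertical axis) against the log2 of the mean CPM over both times (horizontal axis), with a point for each gene tested, apart from 2 with 0 reads in all 6 libraries. The 3628 rises (red) and 3956 falls (blue) lie at all levels, and the rises reach farther from 0 among the genes with the highest counts.

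The change was shared by the 3 replicate numbers. The 25 h minus 7 h difference of log2 CPM had the same sign in all 3 numbers as the fitted change for 3519 of the rises (97%) and 3876 of the falls (98%). Genes that passed the test had to differ, and over all genes tested the share was 53.4%. The median difference of the rises was 1.1, 1.02 and 0.97 in numbers 1, 2 and 3, or 1.03 ± 0.07 (SD, n = 3 numbers). For the falls it was -0.95, -0.99 and -0.86, or -0.93 ± 0.07 (SD, n = 3 numbers). At least 2-fold differences toward higher levels numbered 2901, 2897 and 2862 in the 3 numbers, and toward lower levels 2448, 3024 and 2597. The 3 numbers thus gave medians of like size. Across the 23777 genes, which are not independent replicates, the differences had a Pearson correlation of 0.72 between numbers 1 and 2, 0.61 between 1 and 3 and 0.51 between 2 and 3. The levels of the 3 libraries of each time did not overlap for 2892 of the rises (79.7%) and 3139 of the falls (79.3%). Over all genes tested, 3853 (16.2%) had all 25 h libraries above those of 7 h and 4090 (17.2%) had all of them below.

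**Figure D2:**
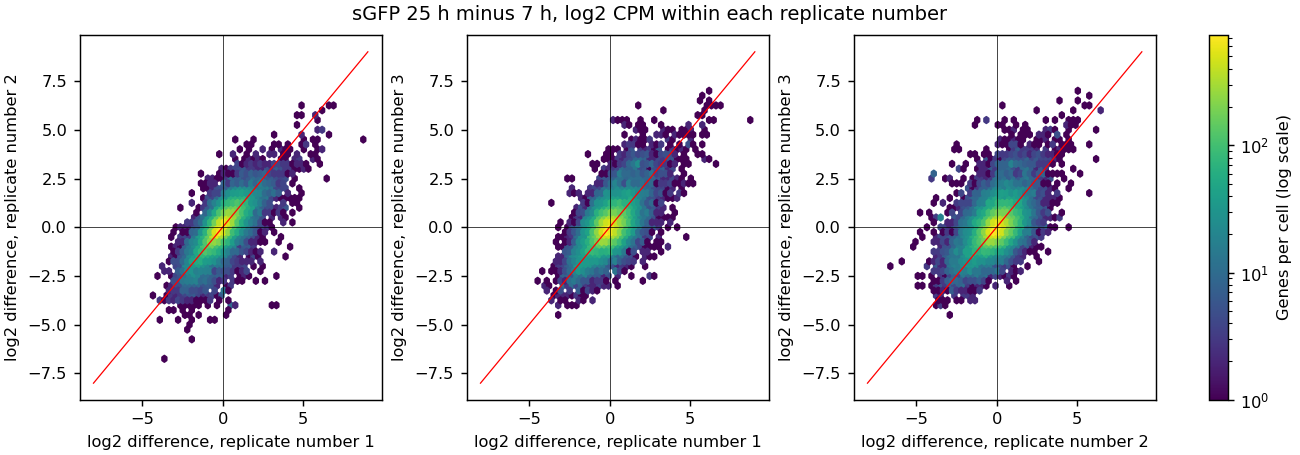
Difference of log2 CPM between 25 h and 7 h in sGFP protoplasts, with each panel setting 2 replicate numbers against each other and colour giving the number of genes per cell on a log scale. Genes follow the red line of equal change, most closely for numbers 1 and 2 (Pearson 0.72) and least for numbers 2 and 3 (0.51).

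The 6 libraries separated by time before anything else. On the leading principal component, with 50.7% of the variance of log2 CPM, times were set apart, the 7 h libraries lying between -67.5 and -66.1 and the 25 h libraries between 63.8 and 68.4. The next component held 24.9% and was lowest for replicate 3 at both times, at -42.2 for 7 h and -77.8 for 25 h, against 3.22 and 40.8 for 7 h replicates 1 and 2 and 19.9 and 56 for 25 h replicates 1 and 2. At 7 h replicates 2 and 3 lay on opposite sides of replicate 1, and at 25 h replicate 3 lay apart from the other libraries. Without 25 h replicate 3, 3798 genes rose and 4079 fell. Of the genes called over all 18 libraries, 82.2% were called in the same direction without it.

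More of the counts lay in the most abundant models at 25 h than at 7 h. The number of tested genes at 1 CPM or more was 22832 to 22928 per library at 7 h and 22445 to 22901 at 25 h. The 10 first models with the most counts in a library held 2.91 to 3.06% of its counts at 7 h and 5.83%, 3.6% and 6.05% in 25 h replicates 1, 2 and 3. Of the 100 models with the highest mean CPM at each time, 59 were common to both. Among the 100 highest at 25 h, 58 rose and 2 fell, while among the 100 highest at 7 h, 17 rose and 20 fell. Choosing genes by their level at a time favours genes higher at that time, and 15.3% of all genes tested rose and 16.6% fell, so the counts for 7 h were close to those of all genes. Genes that rose held 13%, 12.3% and 12.6% of the counts of 7 h replicates 1, 2 and 3 and 34.1%, 27.6% and 31.3% of those at 25 h. Genes that fell held 23.4%, 24% and 22.9% at 7 h and 11.8%, 13% and 10.5% at 25 h. The groups of libraries did not overlap in either share, and the genes were chosen by this very change.

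Some genes with high counts are given here without identifiers, chosen after their values were seen. The model with the highest mean CPM at 25 h was at 3602, 2120 and 4132 CPM in 7 h replicates 1, 2 and 3 and at 9207, 4612 and 14317 CPM at 25 h. All 3 libraries of 25 h were above those of 7 h, and the fitted rise was 1.46 on the log2 scale (SE 0.325, adjusted p = 0.0033 by edgeR). Of the rises of at least 8-fold, the one with the highest level at 25 h went from 112, 106 and 55.9 CPM to 6445, 3092 and 3495 CPM. It moved from rank 2461 to rank 6 of all genes tested, and its fitted rise was 5.56 on the log2 scale (SE 0.313, adjusted p = 3.91e-08 by edgeR). At 12 h it was in between in each replicate number, at 1234, 727 and 434 CPM. Of the falls of at least 8-fold, the one with the highest level at 7 h went from 452, 487 and 835 CPM to 65.3, 47.5 and 67.7 CPM, from rank 110 to rank 3839. That log2 change was -3.23 (SE 0.175, adjusted p = 3.31e-08 by edgeR). Of the falls of at least 2-fold, the one with the highest level at 7 h was at 1921, 2591 and 1554 CPM at 7 h and 813, 837 and 533 CPM at 25 h, a fitted log2 change of -1.47 (SE 0.211, adjusted p = 0.000111 by edgeR). The model with the highest mean at 7 h was at 3688, 4889 and 2712 CPM there and at 4259, 2573 and 4771 CPM at 25 h. These libraries overlapped, and its log2 change of 0.03 (SE 0.309, adjusted p = 0.952 by edgeR) did not pass the test.

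Rises and falls were spread unevenly over the levels. The genes tested were put into 5 classes of equal size by their mean log2 CPM over the 6 libraries. In the lowest class, up to 3.71 CPM, 12.1% of genes rose and 16.6% fell, and in the highest, from 47.4 CPM, 14.6% rose and 21.1% fell. The middle class had 17.8% rises and 13.2% falls. The fitted changes in the lowest class had a median SE of 0.459 and those in the highest 0.151, so a change at a low level had to be larger to pass. The median rise was 1.85 in the lowest class and 0.99 in the highest, and the median fall was -1.97 and -0.62. At least 4-fold rises numbered 256, 142, 95, 79 and 138 from the lowest class to the highest, and at least 4-fold falls 380, 144, 60, 36 and 20. Among the genes with the highest counts, large rises therefore outnumbered large falls 138 to 20, and among those with the lowest, large falls outnumbered large rises 380 to 256.

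Genes read at 1 time alone were few and low. Reads in each 25 h library and 0 reads in all 3 libraries of 7 h were found for 111 first models, of which 15 had a mean of at least 1 CPM and 5 passed the filter on low counts. Such models were chosen for their difference, so the calls among them show nothing further. The reverse, 0 reads at 25 h and a read in each 7 h library, was found for 108 first models, of which 3 had a mean of at least 1 CPM and 2 passed the filter. The highest mean CPM was 5.78 in the first set and 1.92 in the second. The 25 h libraries held 24525606 counts in all and the 7 h libraries 13494554, so a transcript at the same level was more likely to be missed at 7 h.

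The 2 largest rises under the rule for named genes belonged to the first kind or close to it. That rule took only called genes with no overlap between the 7 and 25 h libraries, so neither trait is further support. POPTR_0006s12440.1 had 0 reads in each 7 h library and 5.83, 6.53 and 4.99 CPM in 25 h replicates 1, 2 and 3, from 78, 19 and 31 reads. Against a floor of 3 reads over the 7 h libraries it was 26.9-fold higher at 25 h (edgeR adjusted p = 3.35e-06). The exact 95% counting interval of the ratio began at 21.6. In the 12 h libraries it was at 0.764, 0.834 and 0.603 CPM, above all of 7 h and below all of 25 h. With PtrSND1-B1 this gene had 1, 2 and 4 reads at 7 h, and its fitted log2 change was 4.02. In sGFP protoplasts, POPTR_0022s00640.1 had 0, 1 and 0 reads at 7 h and 16, 6.88 and 17.7 CPM at 25 h, from 214, 20 and 110 reads. The ratio of scaled reads was 217, with an exact 95% counting interval of 38.6 to 8587 (edgeR adjusted p = 1.68e-06). The size of this ratio rests on 1 read at 7 h. The fitted log2 change, 7.17 over all libraries, was 9.58 without 7 h replicate 2, which held the read, 6.44 without replicate 1 and 6.55 without replicate 3. At 12 h its levels were 3.56, 0.834 and 1.01 CPM. Both genes were higher in each 25 h library than in any 7 h library, and the floor and intervals cover counting error only, since PCR copies of a molecule were not told apart.

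The 2 largest falls under the same rule started from low levels as well. For them, too, a call and no overlap between times were conditions of the choice. POPTR_0004s22280.1 was at 1.91, 12.6 and 0.683 CPM in 7 h replicates 1, 2 and 3, or 5.08 ± 6.58 CPM (SD, n = 3). At 25 h it had 2, 0 and 1 reads, or 0.15, 0 and 0.161 CPM. The groups did not overlap, and the fitted log2 change was -4.66 (SE 1.23, adjusted p = 0.00968 by edgeR), with a ratio of scaled reads of 37 in favour of 7 h (exact 95% counting interval 12.2 to 184). The size of this fall rests on 7 h replicate 2, without which the log2 change was -3.65 and did not pass (adjusted p = 0.105 by edgeR), and it was not called without 25 h replicate 1 either (adjusted p = 0.0614). Without 7 h replicate 1 it was -5.33. When only the 6 or only the 9 control libraries were fitted, the filter on low counts removed this gene, so those fits did not test it. POPTR_0005s15100.1 was at 7.38, 4.5 and 14 CPM at 7 h and at 0.299, 0 and 0.643 CPM at 25 h. Each 25 h library was below each 7 h library, a fitted log2 change of -4.63 (SE 0.495, adjusted p = 7.77e-06 by edgeR). The 12 h levels of this gene were 2.29, 0.695 and 4.22 CPM, and inside each replicate number they lay between those of 7 and 25 h.

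**Figure D3:**
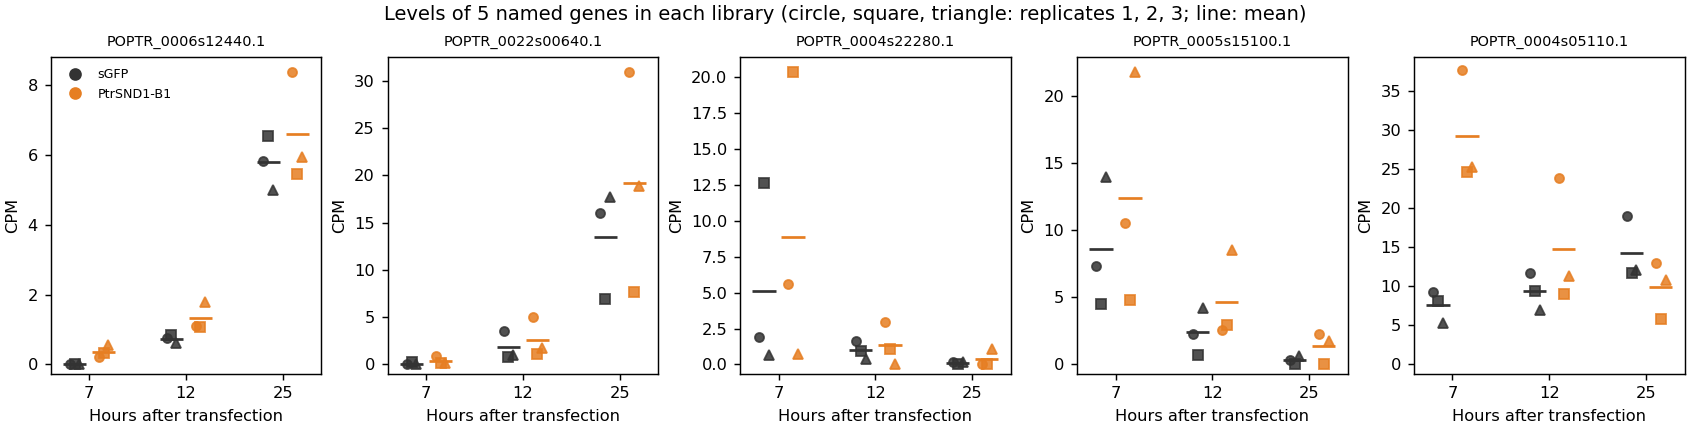
CPM (vertical axis, linear, a scale per panel) of 5 named genes at 7, 12 and 25 h in sGFP (black) and PtrSND1-B1 (orange) libraries, with a symbol per replicate and a line at the mean. The 2 rises on the left are near 0 at 7 h, the 2 falls in the middle are near 0 at 25 h, and POPTR_0004s05110.1 on the right is higher with PtrSND1-B1 in all libraries at 7 h and overlaps between constructs at 25 h.

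At 12 h the genes that changed from 7 to 25 h stood between both. The median log2 CPM of the 3628 rises was 3.31 ± 0.04 at 7 h, 3.9 ± 0.08 at 12 h and 4.48 ± 0.04 at 25 h (SD, n = 3 libraries each). For the 3956 falls it was 4.73 ± 0.01, 4.29 ± 0.07 and 3.74 ± 0.003 (SD, n = 3 libraries each). The libraries of the 3 times did not overlap in either median. The fitted change of the rises had a median of 0.55 over the 5 h up to the 12 h sample and 0.56 over the 13 h after it. For the falls the medians were -0.49 and -0.5. The rises of at least 8-fold had medians of 1.95 and 1.79 over these spans, and the falls of at least 8-fold -1.38 and -1.99. All of these spans share libraries with the 25 h against 7 h comparison, so they describe the same genes and add no independent test.

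Protoplasts with PtrSND1-B1 gave the same span in libraries of their own. From 7 to 25 h, 3412 genes rose (14.4%) and 3919 fell (16.5%) in them by edgeR's test. Of the genes that rose in sGFP protoplasts, 2687 also rose with PtrSND1-B1, which is 74.1% of the sGFP rises and 78.8% of the PtrSND1-B1 rises. For the falls, 3050 were shared, or 77.1% and 77.8%. A call in the opposite direction was made for 3 of the sGFP rises and 0 of the falls. The sGFP rises had a median change of 1.13 in sGFP and 1 in PtrSND1-B1 protoplasts, and the falls -0.99 and -0.89. The genes were chosen by their change with sGFP, the first value of each pair. In all 3 replicate numbers of PtrSND1-B1, 88.6% of the sGFP rises were higher at 25 h and 91% of the falls lower, while 26.4% and 28.8% of all genes tested were. Both constructs were fitted with a common term for the replicate number and a common spread, so the lists are not fully independent. Across all genes tested, the 25 h minus 7 h differences of both constructs had Pearson correlations of 0.81, 0.74 and 0.82 within replicate numbers 1, 2 and 3. Between the sGFP numbers they were 0.51 to 0.72. The differences were thus more alike across constructs than across numbers, and the sharing of calls is not an independent repeat.

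**Figure D4:**
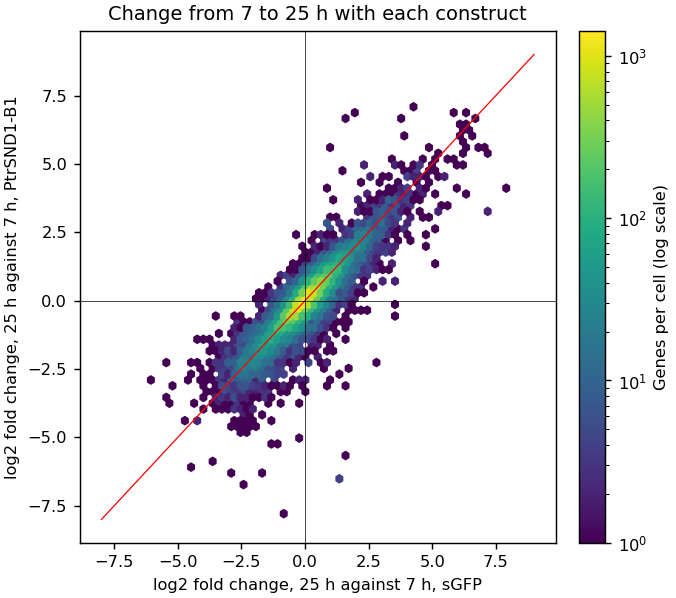
Fitted log2 fold change from 7 to 25 h with sGFP (horizontal axis) and with PtrSND1-B1 (vertical axis) for the 23777 genes tested, with colour for the number of genes per cell on a log scale. Genes lie along the red line of equal change, and the median change of the sGFP rises was 1.13 and 1.

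**Figure D5:**
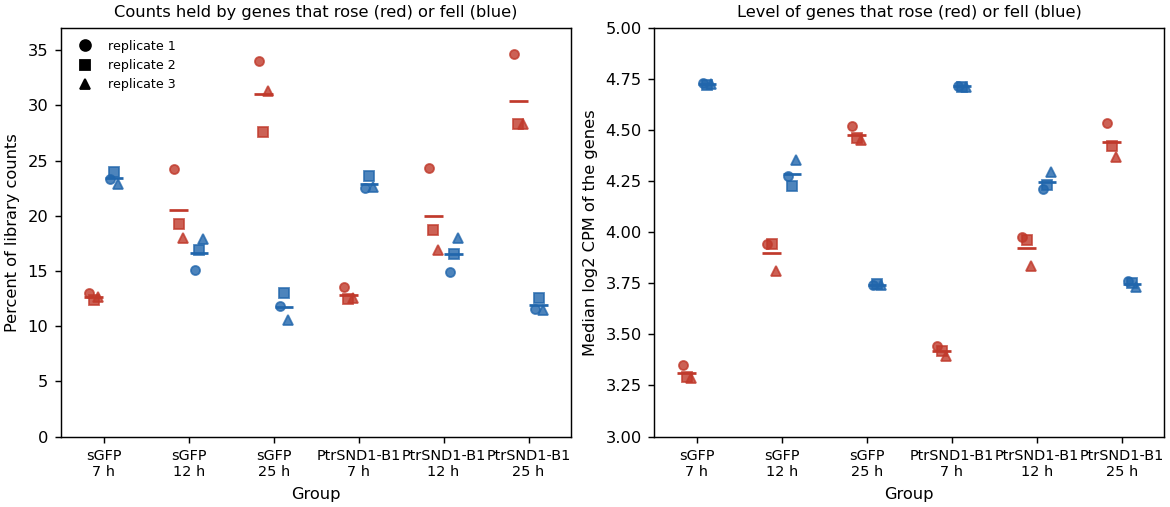
Percent of a library's counts (left) and median log2 CPM (right, axis from 3 to 5) of the genes that rose (red) or fell (blue) from 7 to 25 h in sGFP protoplasts, in each of the 18 libraries, with a symbol per replicate and a line at the mean. In both constructs the red values climb and the blue values drop from 7 over 12 to 25 h.

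The counts held by these genes showed the same course with PtrSND1-B1. Genes that rose in sGFP protoplasts held 12.8 ± 0.589% of the counts at 7 h, 20 ± 3.86% at 12 h and 30.4 ± 3.65% at 25 h with PtrSND1-B1 (SD, n = 3), against 12.7 ± 0.333%, 20.5 ± 3.33% and 31 ± 3.23% with sGFP. Genes that fell held 22.9 ± 0.609%, 16.5 ± 1.52% and 11.9 ± 0.6% with PtrSND1-B1, against 23.4 ± 0.545%, 16.6 ± 1.43% and 11.8 ± 1.24% with sGFP. At 12 and 25 h replicate 1 had the highest share of rising genes with both constructs.

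The difference between constructs was tested gene by gene, as the 25 h against 7 h change with PtrSND1-B1 minus that with sGFP. It passed for 1 of the 23777 genes (0.00421%) by edgeR's test, and DESeq2 called 5. An unadjusted edgeR p under 0.05 was found for 539 genes, or 2.27%, below the 5% expected if no gene differed. A count of 1 does not show that the other genes changed alike, since the median SE of this difference was 0.35 on the log2 scale. The 1 gene was POPTR_0004s05110.1, named after its values were seen. In sGFP protoplasts it was at 9.29, 8.14 and 5.3 CPM at 7 h and at 19, 11.7 and 12.1 CPM at 25 h, with no overlap and a fitted rise of 0.9 on the log2 scale (SE 0.232, adjusted p = 0.00848 by edgeR). With PtrSND1-B1 it was at 37.8, 24.7 and 25.3 CPM at 7 h and at 13, 5.82 and 10.8 CPM at 25 h, a fitted log2 change of -1.57 (SE 0.227, adjusted p = 0.00012 by edgeR). The difference was not called in 11 of 19 alternatives, among them the fit without the block and most fits without a single library. The sGFP rise was not called without the block (adjusted p = 0.0966 by edgeR), without both control libraries of number 1 (0.0698) or without both of number 3 (0.054).

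Genes listed side by side tended to change together. The file gives no coordinates, and rows were called neighbours when they followed each other in it and shared the part of the identifier before the letter s. Where a gene rose, the next row also rose in 29.4% of cases, against 15.3% of all genes tested, and where a gene fell, the next row fell in 27% of cases, against 16.6%. At a distance of 5 rows these shares were 18.3% and 19.5%, and at 20 rows 14.2% and 17.1%. Across neighbouring pairs the fitted changes had a Pearson correlation of 0.29, as a description over 15130 pairs, and of 0.02 at 20 rows. Whether reads were counted in more than 1 row was not tested directly, and only the counts of the rows were compared. Of 13415 neighbouring pairs with at least 180 reads each over the 18 libraries, 296 kept a very steady ratio (chi-square per degree of freedom under 0.5). Counting error alone can also give so steady a ratio in some pairs. Without those pairs the shares were 27.4% and 26.3% and the correlation was 0.27.

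Runs of neighbours that changed in the same direction were counted next. Runs of at least 3 rises numbered 108 and held 420 genes, or 11.6% of the rises. Runs of at least 3 falls numbered 96 and held 335 genes, or 8.47% of the falls. The longest run of rises was 13 rows of the POPTR_0004 series with log2 changes of 2.13 to 2.29. Its summed level was 1654, 1799 and 1346 CPM in 7 h replicates 1, 2 and 3, 9617, 2721 and 2388 CPM at 12 h and 5629, 3424 and 12310 CPM at 25 h. The 7 and 25 h libraries did not overlap, but 12 h replicate 1 was above 25 h replicate 1. In 17 of its 78 pairs of rows the ratio was very steady (chi-square per degree of freedom under 0.5), so its rows may not be 13 separate changes. All 13 also rose with PtrSND1-B1. The longest run of falls was 10 rows of the POPTR_0010 series with log2 changes of -0.89 to -0.34, and 1 of its 45 pairs was that steady. Its summed level was 3521, 4354 and 2623 CPM at 7 h and 2496, 2845 and 1105 CPM at 25 h. The times overlapped, and inside each number the 25 h sum was the lower one. With PtrSND1-B1, 9 of its 10 rows fell.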

How the data were processed

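The authors deposited raw counts, as integers for each gene model and library. Per the submitters' processing notes, TopHat and edgeR were used, in roles not stated. No counting tool, genome build, annotation, strand setting or rule for reads with several matches is given, so counts of close copies, overlapping genes and antisense partners are uncertain. Of 45033 models, the 40668 first models, 1 for each locus, were kept. The fit was made in edgeR 4.0.16 under R 4.3.3, after filterByExpr over the 6 groups and TMM scaling, by a quasi-likelihood fit to all 18 libraries with a mean per group and the replicate number as an additive block (10 residual degrees of freedom). Within each construct, the 12 h replicate 1 library had the lowest TMM factor of its time, 0.866 with sGFP and 0.906 with PtrSND1-B1. So did 25 h replicate 3, at 0.797 and 0.877. An additive block does not take up variation shared by 1 number at 1 time. The 18 libraries may thus not be independent, and the p-values of changes over time may be too small. In the difference between constructs, variation that both constructs share drops out of the contrast but stays in the spread. Those p-values may be too large instead. Adjusted p-values are Benjamini-Hochberg over 23777 genes. The standard error (SE) is the log2 fold change divided by the square root of F. Log2 CPM used a prior count of 2. The fit was tested on simulated data, drawn from the fitted model with independent libraries. That test could not show the effect of variation shared by 1 number at 1 time. DESeq2 1.42.0, other scalings, filters and left-out libraries were tried.

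The replicate number was used as a block because the comparison is made within number. The labels do not say what a number shares. Deviations from the group mean of same-numbered 7 and 25 h control libraries had correlations of 0.145, 0.305 and 0.327, all over 0.1, although 25 h replicate 1 correlated more with 7 h replicate 2 (0.165). No replicates of these groups agreed within sampling noise (chi-square per degree of freedom 5.88 to 46.8). Named genes were the 2 with the largest fitted change per direction among those called, with the same sign in all 3 numbers, no overlap and a mean of at least 5 CPM in the higher group. Gene lists by description were planned and not used, because no identifier was matched. The comparisons and rules were chosen with earlier results of these data known.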

Additional observations from a re-analysis of the deposited data

Results flagged for a closer look

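The change of POPTR_0004s05110.1 from 7 to 25 h differed between constructs by a test of the difference itself, at -2.47 on the log2 scale for PtrSND1-B1 minus sGFP (SE 0.324, edgeR adjusted p = 0.0395). It was higher at 25 h in 3 of 3 sGFP numbers and had a log2 change of -1.57 with PtrSND1-B1. Over the alternatives tried the difference was -2.7 to -2.3 and was called in 8 of 19, with adjusted p-values from 4.12e-07 by DESeq2 to 1 by edgeR without the block. Leaving out any single library of 7 or 25 h other than sGFP 7 h replicate 2 or PtrSND1-B1 25 h replicate 3 ended the call. Groups held 3 libraries each, too few to test for a library far from the others.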

How the results depend on the processing

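Without the replicate block 4256 control genes were called, 2065 higher and 2191 lower, and with only the 6 libraries of 7 and 25 h and the block 3489, of which 1690 were higher and 1799 lower. With library size alone 2296 were higher. The other counts of control calls stayed within 1.5 times, between 5130 with only the 9 control libraries and 8728 with all models as rows, the latter added after seeing the data, and no gene was called in the opposite direction in any of the 18 alternatives. Leaving out a single control library gave 5776 to 7877 calls, 2674 to 3798 higher and 3080 to 4079 lower. Leaving out both libraries of a number, added later, gave 5147, 5181 and 6985. With PtrSND1-B1 the count of 7 to 25 h changes became 3994 without the block, and 5546 to 6475 without single libraries. The difference between constructs was called for 0 genes without the block, 2 without the low-count filter, 5 by DESeq2 and 0 to 1 without single libraries. The cause of these shifts was not tested, and some fits also held fewer libraries. POPTR_0006s12440.1, POPTR_0022s00640.1 and POPTR_0005s15100.1 passed in all 18 alternatives and POPTR_0004s22280.1 in 13 of the 16 that kept it after filtering. Depth limits small changes at low levels, where 25 h replicate 2 held 2736863 counts.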

Other observations

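The share of genes that changed differed between identifier series, the part of the identifier before the letter s. Among the 19 series with at least 200 genes tested, the share that rose from 7 to 25 h ranged from 13 to 22% and the share that fell from 12.1 to 19.6%. The highest share of rises was in the POPTR_0011 series, where 193 of 878 genes rose, and 35 of these lay in runs of at least 3 neighbouring rises. With PtrSND1-B1, 188 genes of this series rose, or 21.4%. The 1011 genes outside these 19 series had 17.7% rises and 12.3% falls. No test was made of these shares, since neighbouring rows tended to change together.

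Among first models with at least 180 reads over the 18 libraries, 31 of 22274 held the same counts as another first model in every library. Removing 455 rows whose ratio to a row up to 5 places before them was very steady left 7486 calls. Very steady meant a chi-square per degree of freedom under 0.5, and this alternative was added after seeing the data.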
